A study of Mus musculus with 267 samples.

Results

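Cish, Socs1, Socs2 and Socs3 are the 4 SOCS family genes described here, out of 21951 protein-coding genes in GENCODE vM21. They were chosen by name. Their chromatin was read in bone marrow-derived macrophages (BMDMs) as every region or peak whose centre lay within 50 kb of the gene start on mm10. The study measured histone marks, RNA polymerase II (Pol II) and transcription factors by ChIP-seq in BMDMs grown from the marrow of young adult female mice, first in L929-conditioned medium and then with added M-CSF. The inbred strains, shortened here to the names in brackets, were SPRET/EiJ, C57BL/6J, PWK/PhJ, BALB/cJ and NOD/ShiLtJ (SPRET, C57, PWK, BALB and NOD). Macrophages were left untreated (basal) or given 20 ng/ml IL-4 for 24 h, and C57 macrophages were also followed at 1 and 6 h. Macrophages of Egr2flfl mice, which carry floxed Egr2 alleles without Cre, and of LyzMCreEgr2flfl mice, in which Cre is driven by the myeloid LyzM gene, were compared as basal cells and after 24 h of IL-4.

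SOCS proteins are induced by cytokines and limit the signal that induced them. In the IL-4 pathway, receptor-bound Janus kinases phosphorylate STAT6, which then enters the nucleus and binds DNA at TTC and GAA triplets a few bases apart. SOCS1 and SOCS3 can inhibit Janus kinases directly, whereas CISH and SOCS2 can occupy phosphorylated receptor tails, and all members carry a SOCS box through which a ubiquitin ligase is recruited. Acetylation of histone H3 lysine 27 (H3K27ac) marks active promoters and enhancers, H3K4me3 marks promoters, H3K4me2 marks both, and Pol II over a gene body and just past its end accompanies transcription.

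Cish (ENSMUSG00000032578.7) lies at chr9:107296026-107302784 on the plus strand. Socs1 (ENSMUSG00000038037.5) lies at chr16:10782240-10785536, Socs2 (ENSMUSG00000020027.18) at chr10:95385362-95417180 and Socs3 (ENSMUSG00000053113.3) at chr11:117966079-117970047, all on the minus strand. Each region is named below by its gene and the distance in bp of its centre from the gene start, positive in the direction of transcription. The C57 time-course table held 97 such regions of 77955, with 24 near Cish, 26 near Socs1, 10 near Socs2 and 37 near Socs3. Other genes start inside these windows. Mapkapk3 starts at -6149 on this scale from Cish and its body holds the Cish regions farther upstream. Tnp2, Prm3, Prm2 and Prm1 lie upstream of Socs1, Rmi2 starts at -49523 from Socs1, and Pgs1 starts at -16245 from Socs3, whereas no other protein-coding gene starts within 50 kb of Socs2. A region near a member is not thereby shown to act on it.

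Some of the STAT6 sites on which the results below turn are shown as the mm10 reference sequence, which is that of C57. Each stretch is read along the strand of the gene it is named for. Capitals mark a match to TTCNNNGAA or TTCNNNNGAA on either strand. The stretches run from 20 bases before the first match to 20 bases after the last within the peak, and the 2 shown from the Cish exon run 10 bases either way. They are shown because each held a match and had a STAT6 peak listed in C57 only after IL-4, and not all such sites are shown. Cish +7263, also listed in C57 only after IL-4, held no match of either spacing in the window scanned. Cish +11964 is at chr9:107307927-107308074, Socs1 -602 at chr16:10786070-10786203, Socs1 +40090 at chr16:10745423-10745472, Socs2 +268 at chr10:95416884-95416943 and Socs3 +821 at chr11:117969219-117969267. The Cish +637 peak held 4 matches, all in exon sequence of the longest GENCODE transcript, and those at +633 (chr9:107296649-107296677) and +755 (chr9:107296771-107296799) are shown.
Cish +11964: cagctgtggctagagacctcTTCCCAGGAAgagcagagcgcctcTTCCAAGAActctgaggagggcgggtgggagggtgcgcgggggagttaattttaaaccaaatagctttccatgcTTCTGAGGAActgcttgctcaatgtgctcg
Cish +633: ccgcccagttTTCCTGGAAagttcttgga
Cish +755: aagatgaggcTTCCGGGAAgggctgggac
Socs1 -602: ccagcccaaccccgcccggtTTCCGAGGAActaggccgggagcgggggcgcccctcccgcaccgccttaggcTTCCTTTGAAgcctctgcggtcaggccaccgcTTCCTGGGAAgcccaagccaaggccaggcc
Socs1 +40090: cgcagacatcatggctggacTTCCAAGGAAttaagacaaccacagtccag
Socs2 +268: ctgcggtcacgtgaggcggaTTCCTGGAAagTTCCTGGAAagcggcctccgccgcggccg
Socs3 +821: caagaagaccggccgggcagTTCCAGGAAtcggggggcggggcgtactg

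Of the 35 member sites in the C57 STAT6 list at 1 h, 17 (48.6%) held either spacing, compared with 32.03% of all 24374 peaks scanned in that list. Of the 54 member sites in any C57 list, 19 (35.2%) did. Either spacing was held by 20.4% of all 24 h peaks and 14.6% of 32851 RefSeq promoters, which are longer than the windows scanned at peaks. Whether the member shares differ from these was not tested. A match describes letters in a window and is not a measured contact. The Socs2 +268 peak held 2 copies of the same 9-base match separated by 2 bases, and the Socs1 -602 and Cish +11964 peaks held 3 matches each. In the RefSeq promoters, which span 250 bases before to 50 after a RefSeq start, Cish held 2 TTCNNNGAA matches and Socs3 held 1. The Cish interval, chr9:107296409-107296708, lies downstream of the GENCODE start from which distances are given. Its 2 matches are the exon matches at +633 and +644 of the Cish +637 peak, not further ones. The Socs1 promoter held none of either spacing and 1 EGR core (GTGGGCG), which was found in 7.97% of all promoters.

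STAT6 was listed at more sites near the members after IL-4. In the C57 lists, which give peaks reproducible between replicates, 24 of 30589 basal peaks lay within 50 kb of a member (0.0785%), compared with 35 of 24376 at 1 h (0.144%), 35 of 23884 at 6 h (0.147%) and 42 of 39537 at 24 h (0.106%). The counts from basal to 24 h were 7, 10, 10 and 10 for Cish, 3, 7, 5 and 10 for Socs1, 3, 4, 6 and 9 for Socs2 and 11, 14, 14 and 13 for Socs3. Peaks that overlapped across strains and times merged into 65 sites, of which 54 were in a C57 list. Of those 54, 14 were listed at all times, 30 only after IL-4 and 11 at 1, 6 and 24 h but not in basal cells. These are 1 list a group, so they carry no error and no test, and a list without a peak shows only that no reproducible peak was listed there. The share of all STAT6 sites with each of these patterns is not given, so the site counts do not show whether members stand out.

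Across strains, 15 sites were in all 5 STAT6 lists at 24 h, and 4 of these were in no basal list of any strain. These were Cish +7263, Cish +11964, Socs1 -602 and Socs1 +40090. The share of all STAT6 sites with either pattern is not given, so the counts of 15 and 4 do not show whether members stand out. Socs1 -602, close to the Socs1 promoter, stood within the top 0.0304% of the C57 list by the authors' peak score, the top 0.128% in BALB, 0.141% in NOD, 0.0362% in PWK and 0.0252% in SPRET. In C57 it was in the top 0.0461% at 6 h and was not listed at 1 h. A separate site over the start, Socs1 -68, was listed in basal C57 cells as well (top 61.0%, then 20.0%, 17.1% and 9.31% at 1, 6 and 24 h). Cish +11964 was in the top 0.308% at 1 h, 0.448% at 6 h and 1.92% at 24 h in C57, and at 24 h in the top 7.27% in BALB, 2.89% in NOD, 0.489% in PWK and 0.680% in SPRET. Cish +7263, just past the end of the gene, stood in the top 3.22%, 3.54% and 6.91% of the C57 lists at 1, 6 and 24 h. At 24 h it ranked lower in BALB (top 64.1%), NOD (39.0%) and SPRET (21.3%) and higher in PWK (2.40%). Socs1 +40090 stood in the top 13.1%, 27.8% and 6.40%.

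**Figure D1:**
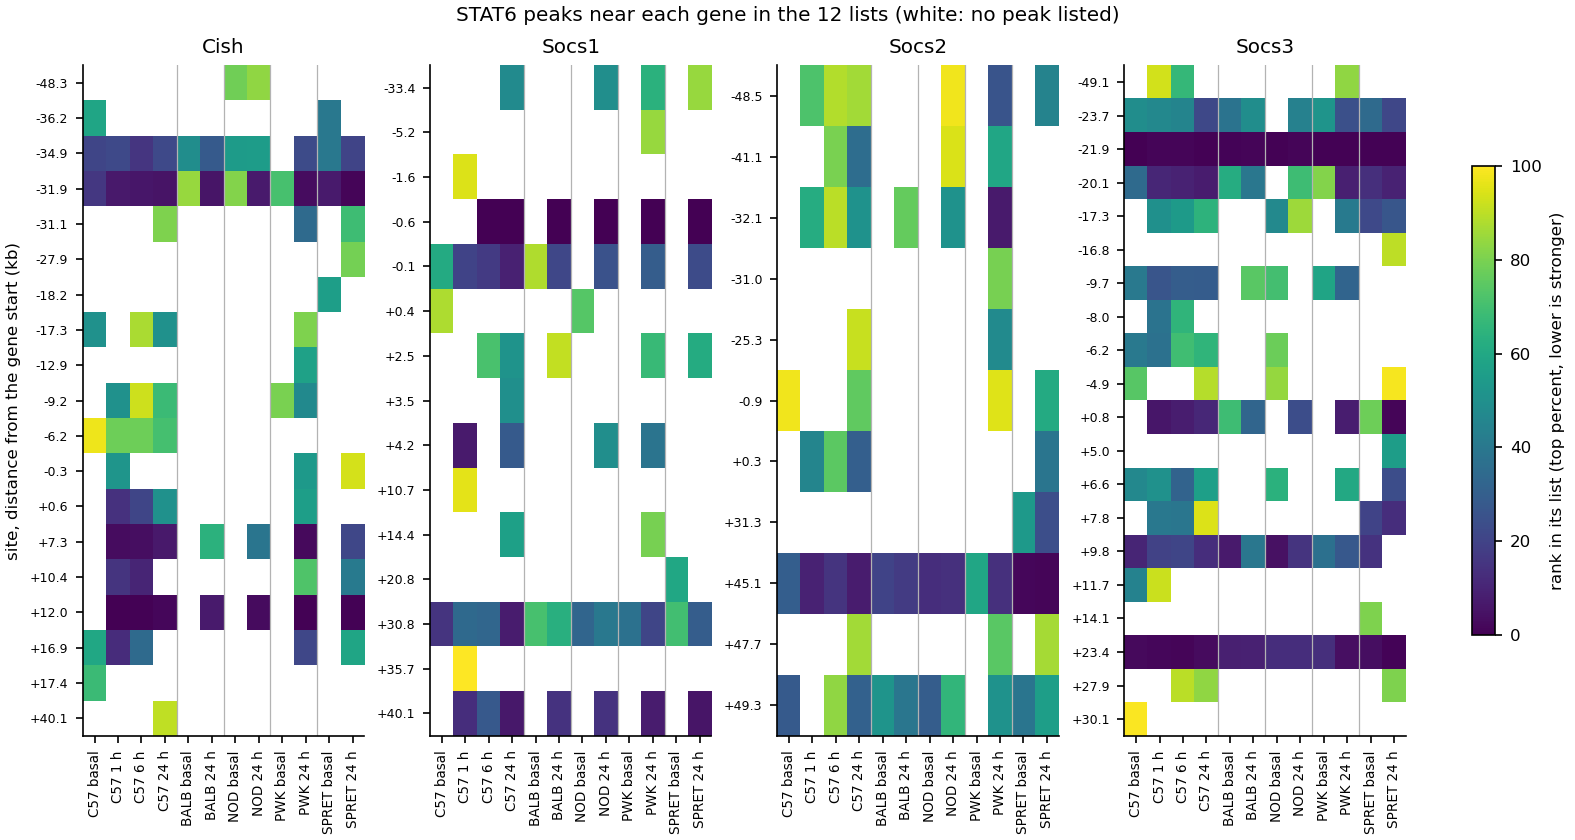
STAT6 sites near the 4 genes (rows, distance in kb from the gene start) in the 12 strain and time lists (columns), coloured by the position of the peak in its list by score, with white where no peak was listed. Cish +7263, Cish +11964, Socs1 -602 and Socs1 +40090 are filled in all 5 columns for 24 h of IL-4 and white in all 5 basal columns.

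The sites at Socs2 and Socs3 ranked lower or were not new to IL-4 in every strain. Socs2 +268 was in the top 45.6%, 74.7% and 30.1% of the C57 lists at 1, 6 and 24 h and otherwise only in that of SPRET at 24 h (39.0%). Socs2 -32082 was listed in C57 at 1, 6 and 24 h and in BALB, NOD and PWK (7.38%) at 24 h, and was in neither SPRET list. Socs3 +821 was in the top 5.89%, 8.09% and 10.96% in C57 and in every strain at 24 h, SPRET standing at 1.33%, but it was also in the basal BALB and SPRET lists. Socs3 +23360, Socs3 -21893 and Socs2 +45093 were in all 12 lists, the basal ones included. Socs3 -21893, within Pgs1, was in the top 0.212% of the basal C57 list and 0.470% of that at 24 h. Socs2 +45093 was in the top 29.8% of the basal C57 list, and at 24 h in the top 7.55% in C57 and 1.19% in SPRET. Other factors had more peaks near the members at 24 h in C57, but so did their lists as a whole. EGR2, the IL-4-induced zinc finger factor, had 9 of 8437 peaks there in basal cells (0.107%), 20 of 13562 at 1 h (0.147%), 15 of 13072 at 6 h (0.115%) and 29 of 29407 at 24 h (0.0986%). From basal to 24 h the nuclear receptor PPARg went from 7 of 7627 to 33 of 39088, a lower share (0.0918% and 0.0844%), and the myeloid factor CEBPb from 15 of 18043 to 30 of 37499 (0.0831% and 0.08%). Of these factors, the share was higher at 24 h only for the myeloid factor PU1, with 60 of 85916 and 75 of 90308 (0.0698% and 0.0831%).

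H3K27ac near Socs1 and Cish rose within 1 h of IL-4 in C57 macrophages, whereas Socs2 and Socs3 had few or no regions that passed. Values are tags in the 1 kb around a region's centre per 10000000 tags of the library, with 2 libraries a time. Differences are log2(value + 1) against basal with their standard error, fitted with limma over all regions of the table, and a region is called below an adjusted p of 0.05. At 1 h 17 of the 97 regions were higher (13 of Socs1, 4 of Cish), compared with 1.37% of all regions. At 6 h 20 were higher (11 of Socs1, 7 of Cish and 1 each of Socs2 and Socs3; 2.67% of all), and at 24 h 15 (10 of Socs1, 4 of Cish, 1 of Socs2; 1.13% of all). No member region was lower at any time. The median difference over the 97 regions was 0.34, 1.01 and 0.45 at 1, 6 and 24 h, compared with -0.63, -0.14 and -0.22 over all regions. In these bulk libraries, more cells carrying a mark and more mark per cell cannot be told apart.

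The second H3K27ac library at 1 h stands apart: 20.5% of its tags lay in the regions, compared with 44.0% in the first. Over all regions of the table, 1065 were higher and 6515 lower at 1 h, and 1578 and 638 when libraries were scaled by the median ratio. At 6 h the split was 2078 and 1919, or 2526 and 1211 by median ratio, and at 24 h 878 and 255, or 1359 and 191. At 1 h the member count was 17 in this fit, 9 without either library of 6 h and 3 without the second basal library. At 6 h it was 4 or 5 without the first or second 6 h library and 11 without the second basal one, and at 24 h between 6 and 7 without either 24 h library, either 6 h library or the second basal one. A group left with 1 library is assumed to vary like the others.

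The Socs1 rises flanked its start on both sides. At Socs1 -1534 the basal libraries held 6.11 and 1.43 normalized H3K27ac tags, those at 1 h 130 and 76.8, at 6 h 182 and 262 and at 24 h 154 and 203. Every library after IL-4 was far above both basal ones, and the log2 difference was 4.60 at 1 h (adjusted p = 0.0035), 5.72 ± 0.60 at 6 h (2.2e-04) and 5.42 at 24 h (4.9e-04). At Socs1 +1169, inside the gene, the values were 12.2 and 3.57 in basal cells, 328 and 122 at 1 h, 311 and 262 at 6 h and 211 and 120.1 at 24 h, with a difference of 5.2 ± 0.64 at 6 h (adjusted p = 3.2e-04). Both regions stayed called at all 3 times under all 14 alternatives. The start itself was acetylated in basal cells: Socs1 -14 held 469 and 252 tags, then 919 and 246 at 1 h, 765 and 604 at 6 h and 677 and 453 at 24 h. It was not called (0.98 ± 0.67 at 6 h, adjusted p = 0.46), and its 1 h libraries overlapped the basal ones. Socs1 -583, at the Socs1 -602 STAT6 site, went from 309 and 117 to 916 and 710 at 6 h and was not called either (2.08 ± 0.69, adjusted p = 0.088). Windows under 1 kb apart share tags, as those at -14, -583 and -987 do.

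Farther out, Socs1 +40117, at the +40090 STAT6 site and just outside Clec16a, held 4.07 and 2.85 H3K27ac tags in basal cells, 24.7 and 36.5 at 1 h, 36.2 and 25.6 at 6 h and 22.9 and 29.5 at 24 h. All IL-4 libraries lay above the basal ones, by 2.81 at 1 h (adjusted p = 0.013) and 2.83 ± 0.57 at 6 h (0.0086), and the 6 h call was lost without the second basal or either 6 h library. Socs1 -49570 lies at the start of Rmi2, a DNA repair gene, and went from 1.36 and 2.14 to 28.6 and 26.5 at 1 h (3.39, adjusted p = 0.0088). By contrast Socs1 +30796, the most acetylated region over 1 kb from the start, held 201 and 210 in basal cells and 220.3 and 295 at 6 h and was not called.

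At Cish the H3K27ac rises reached from the promoter to 12 kb downstream. Cish +12068, at the +11964 STAT6 site, held 4.75 and 1.43 tags in basal cells, 39.4 and 19.6 at 1 h, 87.0 and 105 at 6 h and 89.1 and 89.3 at 24 h. The groups did not overlap, and the difference was 2.95 at 1 h (adjusted p = 0.013), 4.69 ± 0.59 at 6 h (3.7e-04) and 4.59 at 24 h (8.3e-04). It stayed called at 6 and 24 h under all 14 alternatives, and was lost at 1 h without the second basal library. The promoter region Cish -260 held 12.9 and 4.99 in basal cells, 68.8 and 20.3 at 1 h, 100.1 and 145 at 6 h and 64.5 and 57.8 at 24 h, a difference of 3.74 ± 0.63 at 6 h (adjusted p = 0.003). That call was lost without either 6 h library, and the 1 h and 24 h calls (2.08 and 2.77) were each lost in 6 of 14 alternatives. Cish +655, with the largest rise in tags, held 19.7 and 10.7 in basal cells and 143 and 169 at 6 h (3.33 ± 0.62, adjusted p = 0.0055), a call lost without the second basal or either 6 h library. The RefSeq promoter interval of Cish lies within Cish +655 and outside Cish -260, so Cish -260 may not hold most of the promoter signal. Cish +7241 and Cish +10360 rose by 3.90 ± 0.68 and 3.42 ± 0.61 at 6 h (adjusted p = 0.0036 and 0.0041), and both were lost there without either 6 h library.

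The rise did not extend to every acetylated Cish region. Cish +16913, the most acetylated region over 1 kb from the start, held 273 and 235 H3K27ac tags in basal cells, 237 and 104 at 1 h, 246 and 285 at 6 h and 194 and 152 at 24 h. Its 6 h libraries lay within and just above the basal range (0.06, adjusted p = 0.97). Cish +40080, within Hemk1, was called at 6 h (2.40 ± 0.58, adjusted p = 0.023), and that call was lost without the second basal or either 6 h library.

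**Figure D2:**
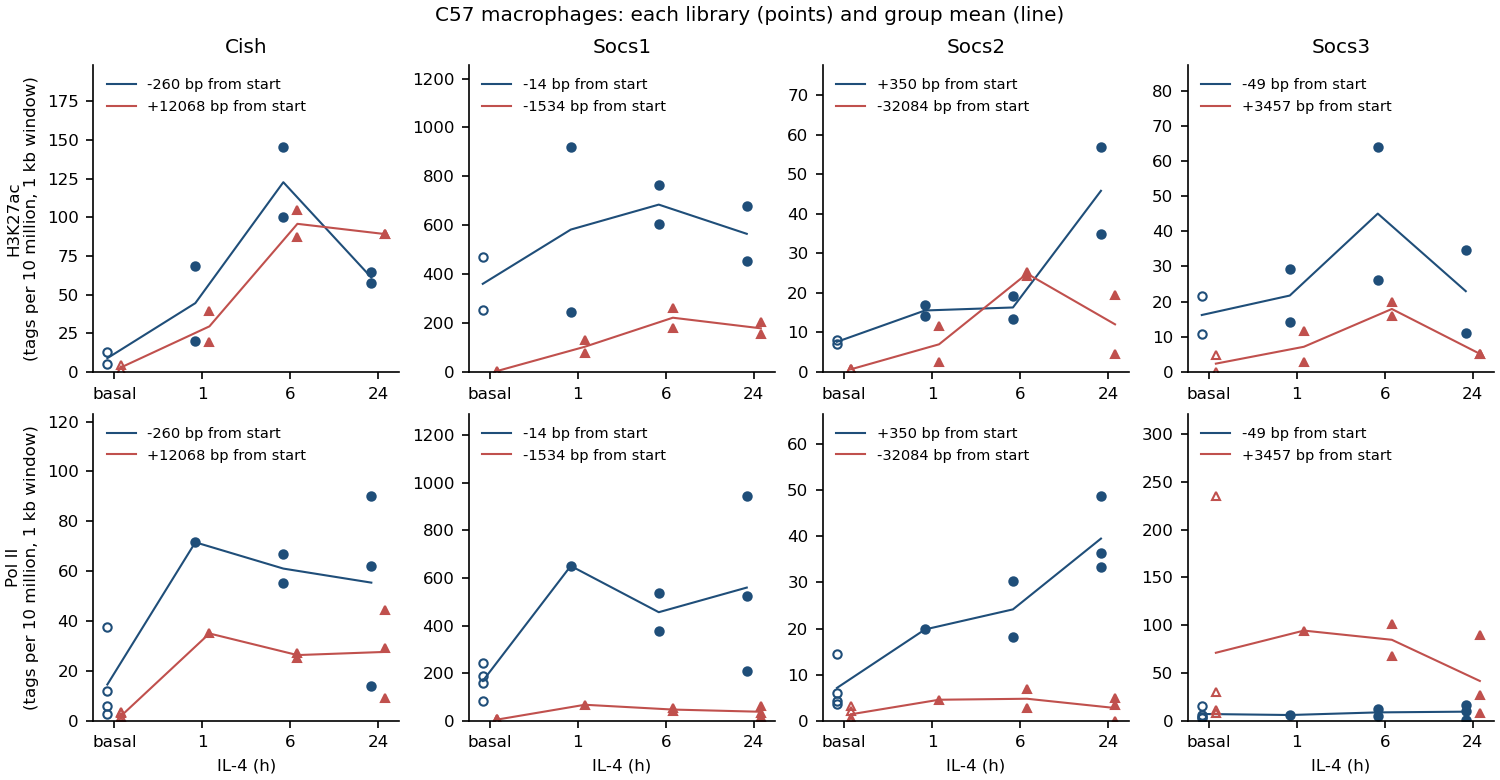
H3K27ac (top row) and Pol II (bottom row) at the promoter region nearest the GENCODE start (circles) and the region with the largest 6 h H3K27ac difference (triangles) of each of the 4 genes in C57 macrophages, as normalized tags per 10000000 in 1 kb against hours of IL-4, with a point for each library and a line through the group means. For both signals Socs1 -1534 and Cish +12068 lie above every basal library at 1, 6 and 24 h, whereas H3K27ac at Socs3 +3457 is 20.0 and 15.8 at 6 h and 5.09 and 5.25 at 24 h.

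Socs2 changed at 2 regions, at different times. Socs2 +350, at the promoter and the +268 STAT6 site, held 8.14 and 7.13 H3K27ac tags in basal cells, 17.01 and 14.1 at 1 h, 19.3 and 13.4 at 6 h and 56.9 and 34.8 at 24 h. The 24 h libraries were the highest, and only that time was called (2.40 ± 0.57, adjusted p = 0.040), a call that was lost without any 1 of the basal, 6 h or 24 h libraries. Socs2 -32084 held 0.68 and 0.71 in basal cells, 11.6 and 2.41 at 1 h, 25.4 and 24.3 at 6 h and 19.5 and 4.59 at 24 h. It was called at 6 h (3.93 ± 0.73, adjusted p = 0.0054), and not without either 6 h library. The other 8 Socs2 regions were not called at any time.

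At Socs3 1 H3K27ac region was called, at 6 h. This was Socs3 +3457, near the end of the gene, which held 4.75 and 0 H3K27ac tags in basal cells, 11.6 and 2.75 at 1 h, 20.0 and 15.8 at 6 h and 5.09 and 5.25 at 24 h (2.97 ± 0.78 at 6 h, adjusted p = 0.033). It was lost without the second basal or either 6 h library and in edgeR. Socs3 +7671 held 49.5 and 25.7 in basal cells, 192 and 11.02 at 1 h, 218 and 190.5 at 6 h and 28.9 and 28.9 at 24 h. Both 6 h libraries lay above the basal ones, and the difference missed the threshold (2.48 ± 0.85, adjusted p = 0.098), as it did at Socs3 +1572 (2.76 ± 0.87, adjusted p = 0.071). The promoter region Socs3 -49, nearest the GENCODE start, held 21.7 and 10.7 in basal cells and 26.2 and 63.9 at 6 h (1.37, adjusted p = 0.26). It may not hold most of the promoter signal. In basal BALB cells H3K4me3 averaged 326 at Socs3 +711, also annotated as promoter, and 81.6 at Socs3 +11.

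**Figure D3:**
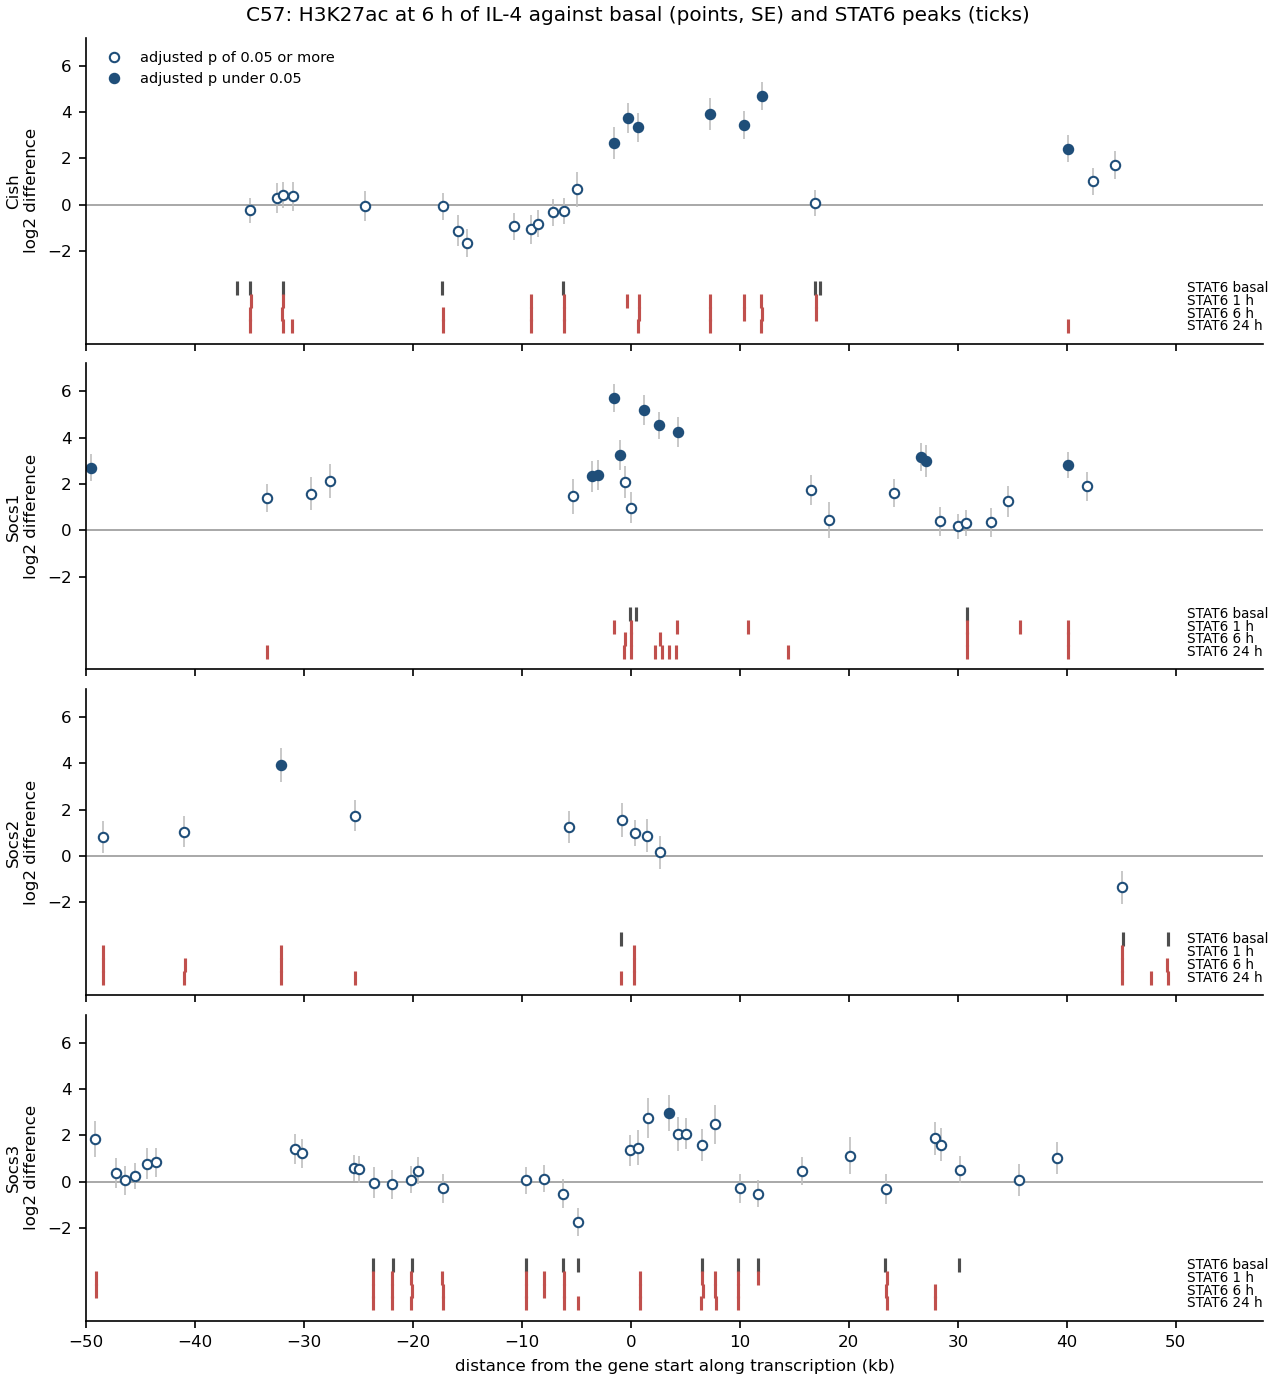
H3K27ac log2 difference from basal at 6 h of IL-4 in C57 (points, with standard error bars) against the distance in kb of each region from the gene start along transcription, with 1 panel a gene and ticks at STAT6 peaks. The points above 4 are Socs1 -1534, +1169, +2610 and +4300 and Cish +12068.

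Pol II rose within Socs1 and just past the ends of Socs1 and Cish, while the windows at their starts were not called. There were 4 basal libraries, 1 at 1 h, 2 at 6 h and 3 at 24 h, the third at 24 h having the lowest values. Of the 97 regions 4 were higher at 1 h (3 of Socs1, 1 of Cish; 0.0462% of all regions), 6 at 6 h (4 and 2; 0.428%) and 7 at 24 h (4 of Socs1, 2 of Cish, 1 of Socs2; 0.503%), and none was lower. Over all regions of the table, 36 were higher and 35 lower at 1 h, and 153 and 55 by median ratio. The median member difference was 0.40, 0.48 and 0.33, compared with -0.18, -0.02 and -0.02 over all regions. The 1 h count was 8 without the first, 1 without the third and 2 without basal library 4. At 6 h the count was 0 without the first and 2 without the second 6 h library and 14 without the first basal one. At 24 h it was 4 without the first or second 24 h or the third basal library and 13 without the third 24 h library.

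Cish +7241 covers the sequence just past the 3' end of Cish. It held 5.62, 0, 0.54 and 2.03 Pol II tags in basal cells, 188 at 1 h, 176 and 154 at 6 h and 113, 157 and 26.9 at 24 h. Even the lowest IL-4 library was above every basal one, and the difference was 6.33 ± 0.89 at 1 h (adjusted p = 0.018), 6.13 ± 0.69 at 6 h (0.0011) and 5.08 ± 0.61 at 24 h (5.6e-04). The 24 h call held under all 16 alternatives, the 1 h call was lost without basal library 3 or 4 and the 6 h call without the first 6 h library. Cish +655 held 53.0, 32.9, 4.82 and 12.2 in basal cells and 109, 235 and 41.0 at 24 h, with overlap and no call (2.41, adjusted p = 0.10).

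Socs1 +2610, in the gene, held 26.2, 21.7, 13.9 and 15.2 Pol II tags in basal cells, 918 at 1 h, 423 and 304 at 6 h and 294, 665 and 144 at 24 h. The 1 h library was the highest, and the differences were 5.55 ± 0.64 (adjusted p = 0.0061), 4.19 (0.0011) and 3.96 ± 0.43 (3.8e-04). The 1 h and 24 h calls held under every alternative run, and the 6 h call was lost without the first 6 h library. Socs1 +4300, about 1 kb past the gene's end, went from 16.9, 13.6, 10.7 and 3.04 to 749 at 1 h and 502, 981 and 123 at 24 h (5.22 ± 0.58, adjusted p = 3.8e-04). At the start, Socs1 -14 held 187, 245, 157 and 82.0 in basal cells, 651 at 1 h, 376 and 537 at 6 h and 526, 944 and 209 at 24 h. The third 24 h library fell within the basal range, and the region was not called (1.59 at 24 h, adjusted p = 0.16).

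Socs2 +350 held 3.74, 14.4, 4.29 and 6.08 Pol II tags in basal cells, 19.8 at 1 h, 18.1 and 30.2 at 6 h and 48.7, 36.4 and 33.4 at 24 h. The 24 h libraries were all above the earlier ones, and that time was called (2.47 ± 0.45, adjusted p = 0.017). The call was lost without basal library 3 or 4 or the first or second 24 h library. No Socs3 region was called for Pol II.

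No member site passed in the EGR2 time course. The table held 32 member sites of 30675. At 1, 6 and 24 h 0 were called by limma (0%, 0% and 0% of all sites in either direction). Members with an unadjusted p below 0.05 numbered 4, 5 and 6 by limma. The calls were 0, 1 and 1 by edgeR and 4, 3 and 2 by DESeq2. Shares of all sites are not given for these further counts, so they do not show whether members stand out. Cish +12030, the EGR2 site at the downstream Cish region, held 15.5 and 26.9 tags in basal cells, 93.9 and 338 at 1 h, 203 and 500.2 at 6 h and 303 and 362 at 24 h. All IL-4 libraries were above the basal ones, with a difference at 24 h of 3.95 ± 0.70 (adjusted p = 0.060). Socs1 -634 held 24.8 and 43.0 in basal cells and 203 and 298 at 24 h (2.87, adjusted p = 0.49). The median over the 32 member sites was -0.05, 0.72 and 0.86 at 1, 6 and 24 h, compared with -0.59, 0.17 and 0.66 over all sites.

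The same question was asked in each strain at 24 h. Each strain has its own table of regions, fitted by itself, so regions are matched by centre within 500 bp and differences between strains were not tested. The C57 table uses the basal and 24 h libraries of the time course. H3K27ac was higher at 0 of 80 member regions in C57 (0% of all regions; 30 members at an unadjusted p under 0.05, and 15 of 97 called in the time-course table, whose fit also holds the 1 and 6 h libraries), 8 of 57 in BALB (1.6%), 1 of 65 in NOD (0.0566%), 13 of 71 in PWK (0.487%) and 8 of 73 in SPRET (0.994%). Pol II was higher at 6 C57 regions (0.223%), 8 of BALB (0.663%), 0 in NOD (0%; 11 at an unadjusted p under 0.05), 16 in PWK (1.44%) and 10 in SPRET (0.782%), where the replicate block gave 20. These fits hold no replicate term, although numbers were taken to pair the Pol II libraries of C57, PWK and SPRET. H3K4me2 was higher at 5 C57 regions (0.179%), 1 of BALB (0.0111%), 5 in NOD (0.167%), 6 in PWK (0.311%) and 0 in SPRET (0%; 30 unadjusted). H3K4me3 was higher at 0 C57 regions (0%), 0 of BALB (0%), 1 in NOD (0.016%), 1 in PWK (0.0316%) and 0 in SPRET (0%), with 21, 7, 9, 9 and 6 unadjusted. Shares of all regions are not given for the unadjusted counts, so those counts do not show whether members stand out. No member region was lower in any strain or mark, and none near Socs3 was called.

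These strain counts rest on 2 libraries a group for the histone marks. Groups this small can separate without overlap by chance, and the share of all regions that did so is not given. Separation without overlap is therefore a description of values below. Without the first or the second PWK library at 24 h the H3K27ac sum over strains went from 30 to 17. The H3K4me2 sum of 17 was 52 without the first C57 24 h library, 34 without the first BALB 24 h, 36 without the first NOD basal, 26 without the second SPRET 24 h and 34 without the first SPRET basal library, and 11 without either PWK 24 h library. The H3K4me3 sum of 2 was 1 without any 1 of the 4 NOD libraries or either PWK 24 h library, and 4 without the first PWK basal library. The median H3K4me2 difference over all regions was -0.69 (C57), -0.63 (BALB), -0.30 (NOD), -0.18 (PWK) and -0.48 (SPRET). Median-ratio scaling changed the whole-table split for H3K4me2 from 121 higher and 39 lower to 270 and 8 in C57 and from 115 and 15 to 23 and 0 in NOD. It changed the H3K27ac split in SPRET from 544 and 105 to 405 and 20, and the NOD H3K4me3 split from 11 and 3 to 55 and 30.

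The downstream Cish region rose in every strain by value. H3K27ac at the region matched to Cish +12068 went from 2.94 and 1.19 to 62.5 and 41.0 in BALB (4.14 ± 0.56, adjusted p = 3.9e-10), from 8.58 and 3.13 to 143 and 149 in PWK (4.54 ± 0.56, 0.0020) and from 7.69 and 0 to 112 and 23.7 in SPRET (4.16 ± 0.83, 0.019). It went from 4.75 and 1.43 to 89.1 and 89.9 in C57 (4.60, adjusted p = 0.11) and from 4.99 and 0.79 to 60.8 and 21.4 in NOD (3.51, 0.15). The groups did not overlap in any strain, and 3 of the 5 passed. The PWK call was lost without either 24 h library, and that of SPRET also without the second basal one and under median-ratio scaling or DESeq2. H3K4me2 passed there in C57, BALB, NOD and PWK, for example from 2.45 and 2.11 to 31.7 and 31.5 in C57 (3.32 ± 0.55, adjusted p = 6.3e-06, lost without the second 24 h library).

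Pol II past the Cish end rose in each strain as well. At the region matched to Cish +7241 it went in BALB from 2.55, 0 and 1.09 to 61.8 and 54.8 (4.92), in PWK from 2.12, 1.40 and 2.27 to 146, 129 and 97.5 (5.41 ± 0.36, adjusted p = 6.5e-06) and in SPRET from 0, 0.76 and 1.03 to 98.0, 12.02 and 9.23 (3.95, 0.036). In NOD, with 2 libraries a group, it went from 0.65 and 0 to 53.1 and 30.4 (5.00, adjusted p = 0.10). No strain's groups overlapped, and the NOD difference did not pass. The BALB call was lost without the third basal library, and the C57 call (4.88, adjusted p = 0.0048) without the first or second 24 h one.

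Past the end of Socs1, Pol II at the region matched to Socs1 +4300 went from 10.9, 17.2 and 10.9 to 260.0 and 332 in BALB (4.43), from 16.2, 6.29 and 4.55 to 392, 323 and 211 in PWK (5.08) and from 1.94, 0.76 and 2.05 to 209, 85.5 and 60.02 in SPRET (5.37). In NOD it went from 10.4 and 19.2 to 421 and 149.8 (4.06, adjusted p = 0.13). All 4 marks were higher there without overlap in all 5 strains, whether or not they passed. Some of these values were low, as for H3K4me3 in BALB (1.36 and 0.63, then 7.44 and 5.39). The C57 call was lost without the first or second 24 h library, and that of BALB without the third basal one.

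H3K4me3 moved in opposite directions in the gene and at its start. In the gene it went from 7.13 and 4.21 to 129 and 82.4 at Socs1 +2588 in NOD (4.00 ± 0.45, adjusted p = 5.3e-04) and from 8.39 and 0 to 92.6 and 145 at Socs1 +2616 in PWK (5.26 ± 0.70, 0.013). Each call was lost without either 24 h library, that of NOD also without either basal one and that of PWK also under median-ratio scaling and DESeq2. In C57 it went from 10.9 and 4.39 to 228 and 183 at Socs1 +2408 (4.68, adjusted p = 0.19) and in SPRET from 4.25 and 0.71 to 153 and 41.7 at Socs1 +2357 (4.76, 0.75). BALB had no region there. At the region matched to Socs1 -14 it went from 491 and 550.5 to 282 and 305 for C57 (-0.82, adjusted p = 0.19), from 494 and 517 to 313 and 386 for BALB, from 438 and 588 to 359 and 256 for NOD, from 510.4 and 618 to 347 and 346 in PWK and from 467 and 610 to 392 and 465 in SPRET. The 24 h libraries were lower without overlap in all 5 strains and none passed. Under median-ratio scaling the 5 differences were -0.75, -0.46, -0.65, -0.64 and -0.30. H3K4me2 at that start was also lower without overlap in 5 of 5 (-0.84, -0.80, -0.25, -0.36 and -0.58 under median-ratio scaling), and none passed.

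**Figure D4:**
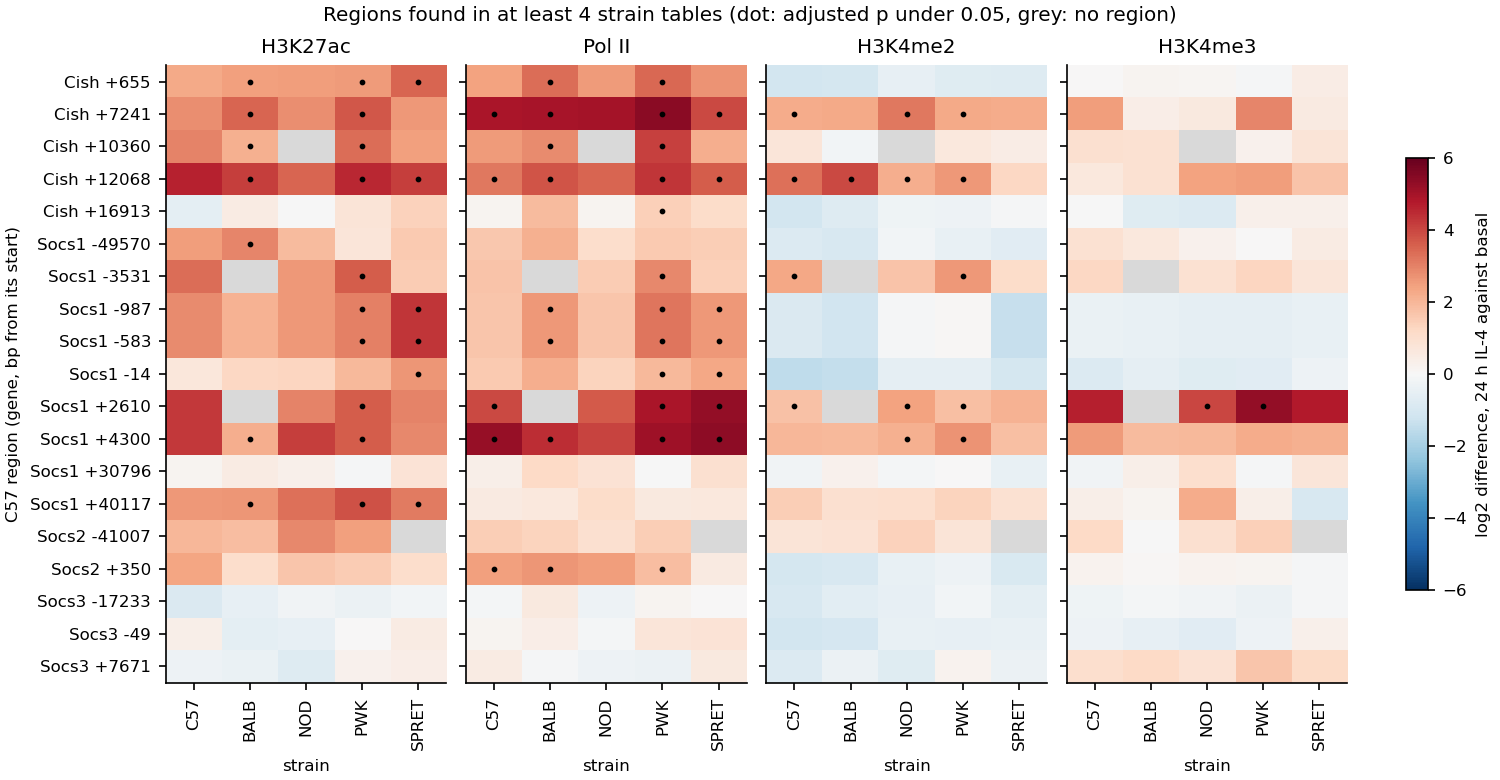
Log2 difference at 24 h of IL-4 against basal for H3K27ac, Pol II, H3K4me2 and H3K4me3 at member regions found in at least 4 strain tables (rows) in the 5 strains (columns), with dots for a limma adjusted p under 0.05 and grey where a strain had no region. Socs1 +4300 is higher for every mark in every strain, and the Socs1 -14 row is lower for H3K4me2 and H3K4me3 in every strain with no dot.

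H3K27ac at the start of Socs1 was called in SPRET alone, where it went from 55.6 and 107 to 666 and 355 (2.64 ± 0.41, adjusted p = 0.0034, lost without either 24 h or the first basal library). Whether SPRET differed from the other strains was not tested. The region matched to Socs1 -1534 went from a mean of 2.52 to 124 in BALB (5.2, adjusted p = 1.1e-16) and from 5.31 to 143 in NOD (4.49, 0.045, lost without either 24 h library). The distal region matched to Socs1 +40117 was higher without overlap in 5 of 5 strains and passed in BALB (2.66, adjusted p = 6.2e-04), PWK (3.81, 0.017) and SPRET (3.13, 0.020), though no PWK or SPRET call held without either 24 h library and the BALB call did not without the second library of either group.

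The upstream Socs2 region was found in few strains. Socs2 -32084 had a matching region in PWK, where H3K27ac went from 3.43 and 8.61 to 102 and 74.4 (3.75 ± 0.58, adjusted p = 0.0071, lost without either 24 h library) and Pol II from 1.41, 0 and 1.52 to 11.5, 16.2 and 11.1 (2.91, 0.011, lost when library 2 or 3 of either group was left out). BALB, NOD and SPRET had none, and in the C57 strain table it went from 0.68 and 0.71 to 19.5 and 3.28 (adjusted p = 0.17). At the promoter, Pol II at the region matched to Socs2 +350 passed in C57, in BALB (2.63, adjusted p = 0.016) and in PWK (1.87, 0.030), with each call lost in 5 or more of the alternatives. In SPRET it went from 14.5, 24.4 and 20.5 to 45.6, 29.7 and 16.6 (0.52), and the groups overlapped. At Socs3 +7671 SPRET had the highest basal H3K27ac by value, 227 and 277, then 332 and 339 at 24 h. The other strains held as basal cells 50.9 and 26.4 (C57), 58.1 and 23.8 (BALB), 77.3 and 39.7 (NOD) and 79.0 and 20.4 (PWK). None of these was called at 24 h, and levels were not tested between strains.

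The Egr2 genotypes were compared at EGR2 sites induced by IL-4, of which 8 of 4677 lay near a member: 4 at Cish, 2 at Socs1 and 1 each at Socs2 and Socs3. Only 1 region of these tables overlaps Egr2, so the deletion could not be checked directly. IL-4 raised H3K27ac at 4 of the 8 in Egr2flfl cells (25.6% of all sites were higher) and at 2 in LyzMCreEgr2flfl cells (14.4%). At Cish +12030 the Egr2flfl libraries held 15.3 and 11.5 tags in basal cells and 204 and 166 at 24 h (3.69 ± 0.30, adjusted p = 5.5e-07), and the LyzMCreEgr2flfl libraries held 6.02 and 8.41, then 102 and 75.5 (3.45 ± 0.30, 7.0e-07). Both genotypes gained the mark, and both calls held under all 14 alternatives. By median ratio the whole-table split went from 1196 higher and 119 lower to 639 and 502 in Egr2flfl, and from 673 and 191 to 576 and 339 in LyzMCreEgr2flfl.

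At 24 h H3K27ac was lower in LyzMCreEgr2flfl than in Egr2flfl at 2 of the 8 sites, close to the 23.2% of all sites. These were Cish +12030 (-1.06 ± 0.30, adjusted p = 0.018) and Socs2 -32041, which held 35.2 and 30.8 in Egr2flfl and 10.4 and 6.38 in LyzMCreEgr2flfl (-1.89 ± 0.55, 0.021). The median over all sites was -0.50, and scaling by the median ratio gave -0.53 and -1.37, neither called. That scaling also turned the whole-table split from 66 higher and 1087 lower to 536 and 496. Both calls were lost without the first or second Egr2flfl 24 h library or the second LyzMCreEgr2flfl one, and in DESeq2. A test of whether the IL-4 response differed between genotypes (the interaction) called 0 of the 8, with an adjusted p of 0.86 at Cish +12030 and 0.37 at Socs2 -32041. For H3K4me2, STAT6, PPARg, PU1 and CEBPb 0 of the 8 were lower (8.94%, 0.0214%, 0%, 9.36% and 8.25% of all sites).

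STAT6 at these sites, counted in 300 bp, was higher at 24 h than in basal cells at 3 of the 8 in Egr2flfl (11.8% of all sites). Cish +12030 held 2.06 and 1.20 in basal Egr2flfl cells and 92.1 and 43.4 at 24 h (4.63 ± 0.89, adjusted p = 0.0011, lost without the first 24 h or the second basal library). In LyzMCreEgr2flfl it held 2.23 and 0.92, then 24.7 and 0. The 24 h values were below both Egr2flfl libraries, and the genotype difference did not pass (-3.66 ± 0.89, adjusted p = 0.11), beside a median of -0.79 over all sites. The other two, Cish +10241 and Socs2 -32041, rose from 0 and 2.39 to 14.9 and 7.97 and from 2.06 and 0 to 11.2 and 8.85, and both calls were lost under median-ratio scaling.

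**Figure D5:**
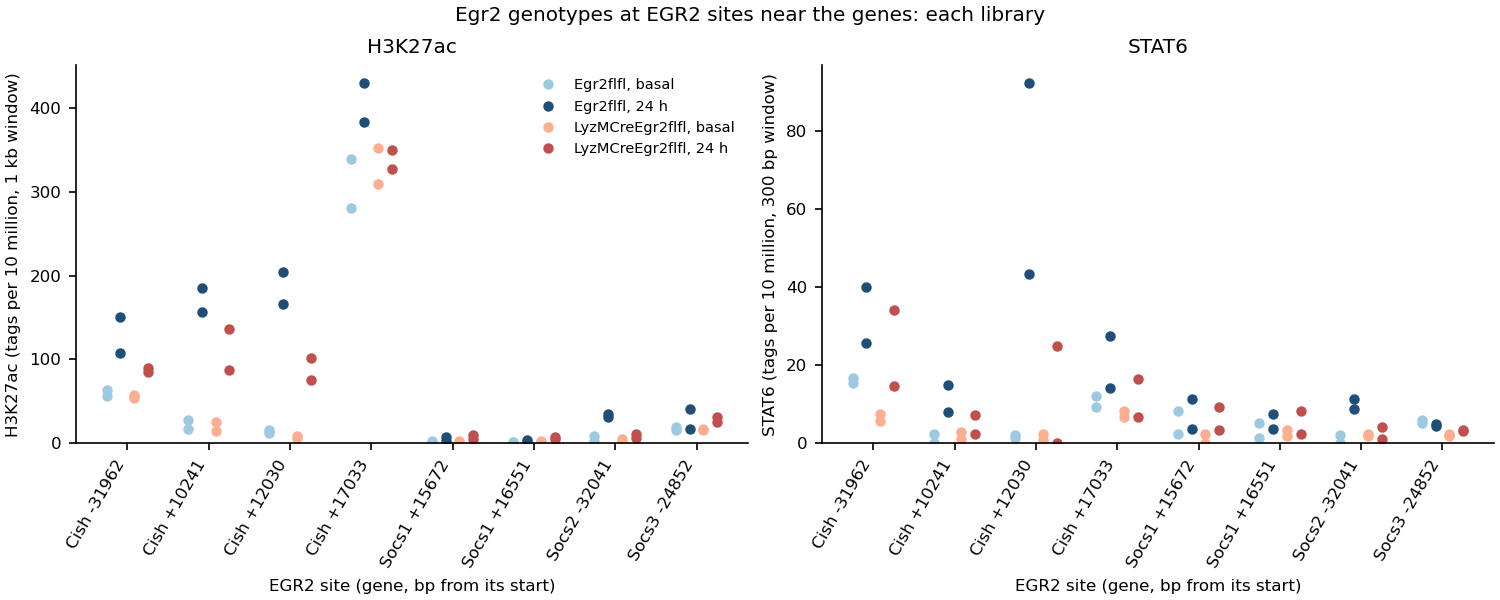
H3K27ac (1 kb windows) and STAT6 (300 bp windows) as normalized tags per 10000000 at the EGR2 sites near the 4 genes, with a point for each of the 2 libraries of each genotype in basal cells and after 24 h of IL-4. At Cish +12030 both signals are highest in the 2 Egr2flfl 24 h libraries, at 204 and 166 for H3K27ac and 92.1 and 43.4 for STAT6.

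Other genes of the pathway were read at their promoters. Of 30 listed genes (the other SOCS genes, the IL-4 receptor chains and kinases, the STAT genes, adaptors and other negative regulators) 27 had a region within 1 kb of the start in the C57 time-course table. By limma none was higher at 1, 6 or 24 h for H3K27ac (1.37%, 2.67% and 1.13% of all regions) or Pol II (0.0462%, 0.428% and 0.503%). At such low shares, none of 27 does not set the list apart. Stat6 was lower for H3K27ac at 1 h (995 and 691 in basal cells, 269 and 172 at 1 h, -1.94, adjusted p = 0.046), when more regions of the whole table were lower than higher. It was not called under median-ratio scaling (-1.13, adjusted p = 0.10), and Stat5a was called higher at 6 h under that scaling only (1.95). The list's median H3K27ac difference was -1.01, -0.29 and -0.74, below the -0.63, -0.14 and -0.22 over all regions. Among the family, Socs4, Socs5 and Socs7 were not called and Socs6 had no region. Arg1, an enzyme induced by IL-4 in mouse macrophages, was higher at 6 h (2.51, adjusted p = 0.030). It was the only 1 of the 3 IL-4 check genes with a region that was called for H3K27ac at any time. Mrc1 (0.01 at 6 h) and Egr2 (1.53 at 6 h, 2.29 at 24 h) did not pass and Chil3 had no region. Under median-ratio scaling Arg1 also passed at 1 h (2.68, adjusted p = 0.014) and Egr2 at 24 h (2.55, adjusted p = 0.020).

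As a check of the cells, 29 of 30 combinations of a macrophage marker gene and a strain had a promoter region, with basal and IL-4 H3K27ac from 37.2 to 1400.3. None of 10 such combinations of T cell or of neutrophil markers did, and 2 of 10 B cell, 6 of 10 dendritic cell and 4 of 10 fibroblast ones did. Their H3K27ac ranged from 0 to 3.62, from 0 to 75.8 and from 0 to 9.70, with medians of 1.92, 3.84 and 3.54 beside 289 for macrophage markers, and the highest dendritic value was that of Zbtb46 in SPRET. For H3K4me3 the dendritic median of 268 was above the macrophage median of 207.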

How the data were processed

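The authors aligned ChIP-seq reads with Bowtie2 to strain genomes made with MMARGE, shifted them to mm10 and counted tags with HOMER. Deposited tag tables hold signal normalized to 10000000 tags of each library, in 1 kb around ATAC-seq peaks or EGR2 sites for histone marks and Pol II, in 300 bp for factors and in the merged peak for the EGR2 time course. STAT6, PPARg and EGR2 were crosslinked with DSG and formaldehyde and the rest with formaldehyde. Deposited peak lists, 54 in all, hold the authors' peak score for peaks passing IDR between replicates, 1 list a group. The IDR lists were not tested.

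Samples were grouped by their labels, 267 samples in 138 groups, of which 155 had their own column. The replicates are labelled biological, and over 99 replicate pairs none was identical. Library totals ranged from 4691644 to 29050468 tags. The 4 value columns that match no sample were not used. All 7268918 values checked were whole reads within 0.1 of a read (100%). log2(value + 1) was fitted with limma 3.58.1 (R 4.3.3) over each whole table, and edgeR 4.0.16 and DESeq2 1.42.0 on the recovered reads were alternatives. In the C57 time course edgeR called 6702, 3877 and 926 regions for H3K27ac at 1, 6 and 24 h and 135, 509 and 582 for Pol II. The limma, edgeR and DESeq2 code was run on simulated reads for the 24 h difference in C57 time-course H3K27ac and PWK Pol II. The other fits were not simulated. Replicate numbers were taken to pair libraries where, with 3 or more numbers, every pair correlated above 0.1. This held for Pol II in the strain tables of C57, PWK and SPRET (lowest r 0.118) and not in the C57 time course (0.0526). The fits reported hold no replicate term, and a replicate block was run as an alternative.

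Named regions were the promoter region of each member, the most acetylated region beyond 1 kb, the largest H3K27ac rise (at least 16 tags) and, in each fit, the largest changes called. Other regions given by name were chosen after their values were seen. Members and lists were chosen with earlier results of these data known. RefSeq promoter sequences matched 3 of the 4 genes.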

Additional observations from a re-analysis of the deposited data

Results flagged for a closer look

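In 2 of 17 groups of 4 C57 basal Pol II libraries, 1 library lay far from the rest by Dixon's test, and chance flags about 1 in 20 groups. At Socs1 +1169 the second library held 22.47 tags, with 11.9, 12.9 and 13.2 in the others, and at Socs3 +7671 the first held 73.63, with 7.22, 2.68 and 5.06 in the others. In 2 of 96 pairs of a region and a mark, the 24 h libraries of 1 strain all lay below its basal ones while those of another lay above, and the difference between strains was not tested. At the region matched to Cish +16913 the H3K27ac log2 difference was -0.57 in C57, 0.757 in PWK and 1.38 in SPRET. At that matched to Socs1 +40117 the H3K4me3 difference was 0.172 in BALB, 2.21 in NOD and -0.954 in SPRET.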

How the results depend on the processing

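Under the replicate block, C57 time-course H3K27ac counts of 17, 20 and 15 regions at 1, 6 and 24 h were 27, 35 and 27, the Pol II counts of 4 and 7 at 1 and 24 h were 7 and 14, and the strain sums of 30 for H3K27ac, 17 for H3K4me2 and 2 for H3K4me3 were 102, 50 and 32. The block gave 2 and 2 EGR2 sites at 6 and 24 h against 0, and 5 Egr2 genotype sites against 2. Pairing was taken only for Pol II in the strain tables of C57, PWK and SPRET, by a rule that needs 3 or more numbers. Fits with 2 numbers could not meet that rule. Same-numbered H3K27ac libraries of the strain tables correlated from 0.261 in SPRET to 0.492 in NOD, and whether they are paired was not tested.

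DESeq2 gave 11, 11 and 13 Pol II regions at 1, 6 and 24 h against 4, 6 and 7, strain sums of 50 for H3K27ac and 7 for H3K4me3, 4, 3 and 2 EGR2 sites and 1 genotype site. Median-ratio scaling gave 11 Pol II regions at 24 h, an H3K4me3 sum of 1, 1 EGR2 site at 6 h and 0 genotype sites. edgeR gave an H3K4me3 sum of 8 and 1 and 1 EGR2 sites at 6 and 24 h. A filter on low regions gave sums of 11 for H3K4me2 and 4 for H3K4me3 and 1 EGR2 site at 24 h. A pseudocount of 5 gave 2 and 1 EGR2 sites at 6 and 24 h and 4 genotype sites, and 1 genotype site was within 20 kb. The STAT6 peak counts of 24, 35, 35 and 42 (basal, 1, 6 and 24 h) were 13, 22, 20 and 23 within 20 kb. They were 14, 22 and 26 in basal cells and at 6 and 24 h where the nearest coding start was the member, and 14, 21 and 22 among the better-scored 50% of each list. The causes were not tested.

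Leaving out 1 library gave 3 to 24, 4 to 27 and 6 to 21 H3K27ac regions and 1 to 8, 0 to 14 and 4 to 13 Pol II regions at 1, 6 and 24 h. The strain sums were 17 to 41 for H3K27ac, 32 to 42 for Pol II, 11 to 52 for H3K4me2 and 1 to 4 for H3K4me3. EGR2 sites numbered 0 to 4 at 1 h (4 without the second and 1 without the first 1 h library), 0 to 3 at 6 h (2 and 3 without the first and second 1 h, 1 without the first 6 h library) and 0 to 2 at 24 h (2 without either 1 h, 1 without either 6 h library), and genotype sites 0 to 3. Of 2191 values for 175 single calls under the alternatives, 1697 stayed called, 494 did not and 0 reversed. The 1 h Pol II group is 1 library, so its spread is taken from the other groups.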

Other observations

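The genes whose promoter H3K27ac followed each member most closely over the 8 C57 time-course libraries, among 8833 promoters, are given as a description, since the libraries share treatment and depth. For Cish these were Golga1 (Pearson r 0.988), Pkp2 (0.977) and Olr1 (0.976), for Socs1 Flrt3 (0.981), Litaf (0.975) and Nfil3 (0.966), for Socs2 Hfe (0.962), Sumf1 (0.949) and Egr2 (0.946) and for Socs3 Braf (0.951), Csrnp1 (0.939) and Plk3 (0.934).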
